A study of Mus musculus with 8 samples.

Results

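The S100 genes studied here are the 10 rows of the deposited count table that carry the symbols S100a1, S100a4, S100a6, S100a8, S100a9, S100a10, S100a11, S100a13, S100a14 and S100a16, out of 31894 genes with an identifier. They were picked by gene symbol, with earlier results of these data known. Of the 10, 9 had enough counts to be tested among 13598 genes, S100a9 being the exception. Bulk mRNA was sequenced from E-cadherin-high (E-cadHI) and E-cadherin-low (E-cadLO) tumor cells sorted from breast cancer brain metastases (BCBM) of 4 FVB mice, numbered 57, 58, 67 and 70, with 1 library of each population per mouse. All mice are labelled wild type, and all tumor cells came from 1 line of BCBM organoids, which descends from a PyMT breast tumor that expresses E-cadherin fused to mCFP and which carries the nuclear label H2B-Dendra2. The cells were injected into the brain, so that the 4 mice share their tumor cells of origin. The mice differ as hosts, and whether their tumors were grown, sorted and prepared together is not given in the labels. No age and no treatment are given in the labels. Per the study's methods, the purity of the sort was checked for the CFP-positive cells.

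S100 proteins are small calcium sensors with a pair of EF-hand loops, and most work as dimers that open a binding face when calcium rises and then attach to partner proteins. Inside the cell they act on annexins, nonmuscle myosin and enzymes. Some are released and are sensed by receptors such as RAGE (Ager) and Toll-like receptor 4 (Tlr4). In tumors, S100A4, S100A6, S100A10 and S100A11 are known for their links to motility, invasion and metastasis. S100A8 and S100A9 form calprotectin, which neutrophils store in large amounts, and S100A14 and S100A16 are known from epithelia. S100A1 is best known from heart muscle, and S100A13 from the release of fibroblast growth factor 1. The question addressed is whether the level of each of these genes differed between the 2 populations of the same mouse.

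All 10 genes lie on mouse chromosome 3 (GRCm38). A group of 8 lies within 184688 bases, from the start of S100a1 at 90511034 to the end of S100a9 at 90695721, and S100a11 (93520488 to 93526287) and S100a10 (93555080 to 93564643) lie apart from it. S100a1 (90511034 to 90514392, minus strand) and S100a13 (90514435 to 90524581, plus strand) start back to back and are separated by 42 bases, shown here because the pair is measured at different levels from the same short region. S100a4 (90603771 to 90606045), S100a8 (90668978 to 90670035) and S100a9 (90692632 to 90695721) are close neighbors as well, and the 250 bases before their RefSeq starts are shown because S100a4 varied most between libraries and S100a8 and S100a9 were measured at very different levels. Capitals mark a TATAAA match in S100a4 and S100a8 and a CAGGTG match in S100a9, which reads CACCTG on the strand printed.
S100a1 and S100a13 gap, chr3:90514393-90514434, plus strand: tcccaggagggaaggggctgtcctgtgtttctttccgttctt
S100a4, chr3:90603520-90603769, plus strand: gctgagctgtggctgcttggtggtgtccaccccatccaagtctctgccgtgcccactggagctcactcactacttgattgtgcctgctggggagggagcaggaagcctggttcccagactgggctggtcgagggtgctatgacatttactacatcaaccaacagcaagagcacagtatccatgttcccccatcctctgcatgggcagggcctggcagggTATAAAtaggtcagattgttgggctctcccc
S100a8, chr3:90668821-90669070, plus strand: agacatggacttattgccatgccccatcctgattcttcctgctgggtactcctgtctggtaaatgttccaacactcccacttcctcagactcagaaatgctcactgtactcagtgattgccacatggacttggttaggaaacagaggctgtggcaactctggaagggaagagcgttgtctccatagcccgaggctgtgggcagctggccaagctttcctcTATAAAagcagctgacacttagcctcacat
S100a9, chr3:90695722-90695971, minus strand: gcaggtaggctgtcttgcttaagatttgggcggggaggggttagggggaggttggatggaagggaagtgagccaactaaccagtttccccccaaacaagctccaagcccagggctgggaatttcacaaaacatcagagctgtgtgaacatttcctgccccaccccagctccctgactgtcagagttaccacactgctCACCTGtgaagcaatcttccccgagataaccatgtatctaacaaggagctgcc

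Promoter sequences are from RefSeq (GRCm38.p6), where 8 of the 10 genes were matched, with 9 windows, while S100a10 and S100a14 were not. The windows were searched on both strands for TATAAA, the core of a TATA box, for CAGGTG, an E-box that EMT transcription factors are known to bind, and for TGANTCA, the AP-1 motif, which overlaps neither of the others. TATAAA was found 31 bases before the start of S100a4 and 30 bases before that of S100a8, and it occurs in 12.4% of 32851 promoter windows of this length. CAGGTG was found in S100a9 (53 bases before the start) and in S100a16 (203 bases) and occurs in 17.2% of windows. TGANTCA was found 2 times in S100a11 (136 and 38 bases before the start) and at another start of S100a16 (192 bases), and it occurs in 6.75% of windows. The S100a8 window covers 93 bases that the GENCODE M21 annotation places in an S100a8 exon from an earlier start, so these bases may be transcribed. S100a4 shares 302 of its exon bases, 51.7%, with the annotated gene Gm42674 on the same strand, which has no row in the deposited count table. The S100a4 values are uncertain to the extent that reads of this stretch were assigned elsewhere. No other member shared exon bases with another gene.

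Total counts ranged from 9102781 to 15769200 per library, at which 3 counts, taken as the detection floor, correspond to 0.202 to 0.349 CPM (counts scaled to the normalized library total). Between 0.0511% and 0.106% of counts fell on the 10 genes. Gm42418, a gene that overlaps ribosomal RNA sequence, took 2.23% to 14.4% of counts, with the highest share in the E-cadLO library of mouse 58. Epithelial genes were abundant in both populations, with 11 markers summing to 7767 to 10490 CPM in E-cadHI and 5813 to 14660 CPM in E-cadLO libraries. Cdh1, which encodes the sorted protein E-cadherin, had 113.8, 132.0, 93.5 and 107.7 CPM in E-cadHI and 71.6, 181.5, 84.5 and 59.2 CPM in E-cadLO libraries of mice 57, 58, 67 and 70, so that the groups overlapped at the mRNA level (log2 fold change -0.17, adjusted p = 0.809, edgeR). Without mouse 58 the log2 fold change of Cdh1 was -0.53 (adjusted p = 0.323, edgeR), without mouse 57 it was -0.050 and without mouse 70 -0.0027. Markers of other cells were also present. Microglia and macrophage markers (10 genes) summed to 33.4 to 147.2 CPM in E-cadHI and 115.1 to 521.2 CPM in E-cadLO libraries, and astrocyte markers (6 genes) to 1133 to 3383 CPM and 716.8 to 9380 CPM. Most of the astrocyte sum in E-cadHI libraries was Aldoc, with 1005, 689.1, 1026 and 2233 CPM in mice 57, 58, 67 and 70. Gfap had 2.09, 88.7, 28.2 and 339.2 CPM in the same libraries. In bulk samples, fewer cells of a type and less RNA per cell cannot be told apart.

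None of the 9 tested members differed between E-cadLO and E-cadHI cells at the threshold of 0.05 after Benjamini-Hochberg adjustment over all 13598 genes in edgeR, and no gene of the whole table did (0% in either direction). At an unadjusted p under 0.05 in edgeR, 3 of the 9 members stood out (33.3%), S100a4 and S100a6 as higher and S100a8 as lower in E-cadLO cells, where 8.16% of all genes tested passed as higher, 5.81% as lower and 14% in either direction. With the mouse as a replicate block, only S100a8 had an unadjusted p under 0.05, as had 19.6% of all genes, and after adjustment 0.728% of all genes were called, all higher in E-cadLO cells, and no member was. DESeq2 called no member either, while it called 2.31% of genes higher and 0.473% lower without the block and 7.72% higher and 1.69% lower with it. S100a4 and S100a10 were higher in E-cadLO cells in 4 of 4 mice, as were 16.8% of all genes, and S100a8 was lower in 4 of 4, as were 14.2%. S100a8 was also the member whose groups did not overlap, as was the case for 8.1% of all genes. The median log2 fold change of the 9 tested members was -0.07, with 4 above and 5 below 0, beside a median of 0.06 over all genes. Of the 36 ratios of E-cadLO to E-cadHI within a mouse, 19 were above 0. With the block, edgeR gave log2 fold changes of 0.70 for S100a6 (adjusted p = 0.326), 0.50 for S100a10 (0.277) and -0.15 for S100a11 (0.757). The same fit gave -0.37 for S100a14 (adjusted p = 0.760), -0.63 for S100a1 (0.326) and -0.12 for S100a13 (0.767).

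**Figure D1:**
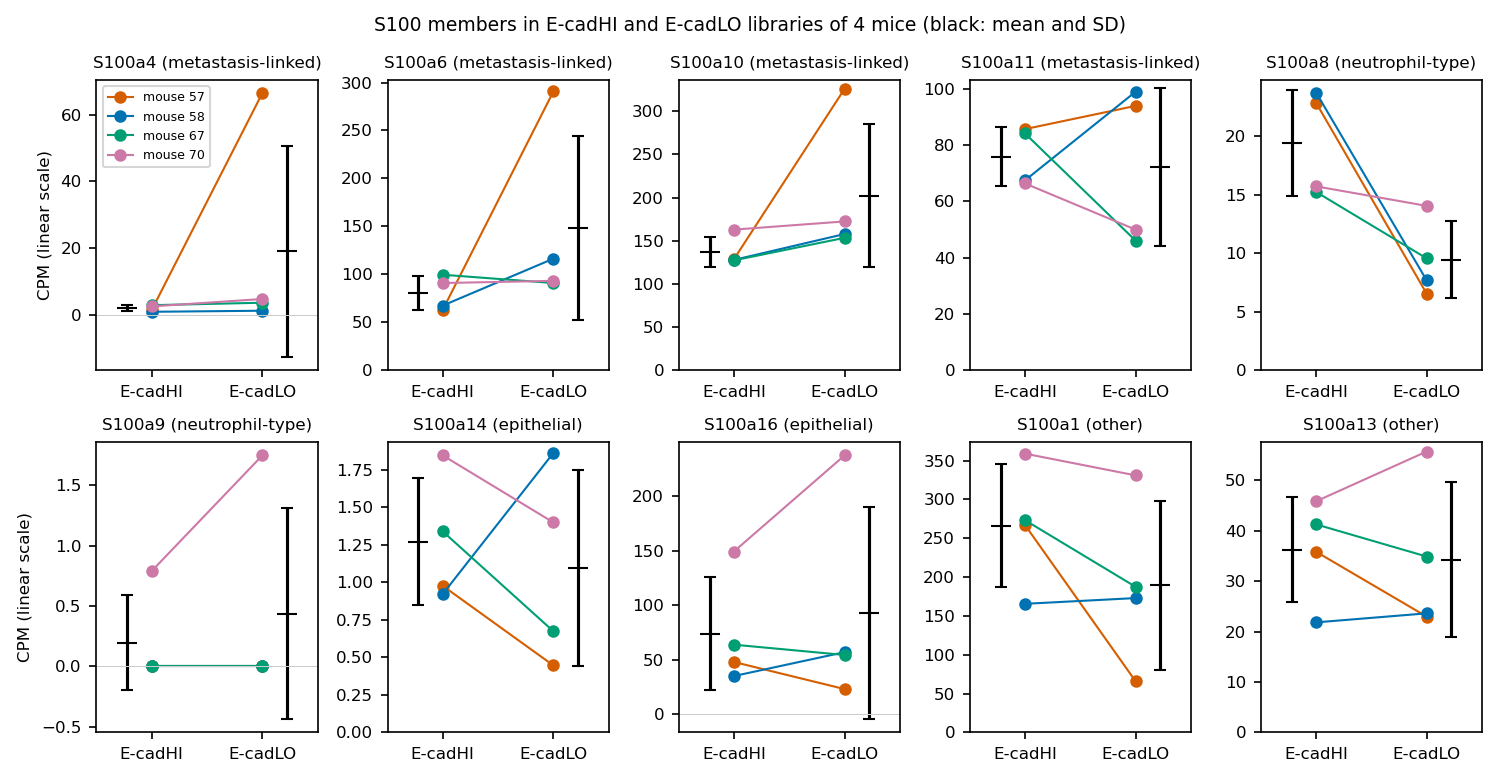
CPM (linear scale, TMM-normalized, a scale of its own in each panel) of the 10 S100 members in the E-cadHI and E-cadLO libraries of 4 mice, with lines joining the libraries of a mouse and black bars giving the mean and SD. The E-cadLO library of mouse 57 lies above all others for S100a4 (66.5 CPM), S100a6 (290.7 CPM) and S100a10 (325.8 CPM), the E-cadLO point of each mouse lies below its E-cadHI point for S100a8, and S100a9 is above 0 only in mouse 70.

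Of the metastasis-linked members, S100a4, also called metastasin, binds nonmuscle myosin and is expressed by fibroblasts as well as by motile tumor cells. Its level was 1.39, 0.845, 2.82 and 2.46 CPM in the E-cadHI libraries of mice 57, 58, 67 and 70, and 66.5, 1.16, 3.57 and 4.68 CPM in their E-cadLO libraries. The single high value was that of E-cadLO cells of mouse 57, from 895 counts, while the other 7 libraries held 10 to 67 counts and their groups overlapped. The log2 fold change was 3.33 (standard error 1.18, adjusted p = 0.303, edgeR), and blocking by mouse gave 1.65 (adjusted p = 0.343). Within mice, the log2 ratio was 5.14 in mouse 57 and 0.31, 0.29 and 0.81 in mice 58, 67 and 70. Without mouse 57, the log2 fold change was 0.59 (adjusted p = 0.832, edgeR), which leaves the size of the difference resting on that mouse.

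S100a6, or calcyclin, which binds the ubiquitin ligase adaptor Cacybp and annexins, had 63.1, 67.4, 99.5 and 90.9 CPM in E-cadHI libraries and 290.7, 116.3, 90.9 and 93.2 CPM in E-cadLO libraries of mice 57, 58, 67 and 70. E-cadLO cells of mice 57 and 58 were higher than their E-cadHI partners (log2 ratios 2.19 and 0.78), and in mice 67 and 70 the libraries of a mouse lay close together (-0.13 and 0.036). The log2 fold change was 0.88 (standard error 0.38, adjusted p = 0.348, edgeR). Without mouse 57 it was 0.20.

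S100a10 (p11), the partner of annexin A2 at the plasma membrane and a receptor for plasminogen, is unusual in the family in that it binds its partner without calcium. Its level was 128.5, 127.7, 127.2 and 162.8 CPM in E-cadHI and 325.8, 157.7, 153.3 and 172.3 CPM in E-cadLO libraries of mice 57, 58, 67 and 70. Every E-cadLO library exceeded its E-cadHI partner, by log2 ratios of 1.34, 0.30, 0.27 and 0.08, although the groups overlapped through the E-cadHI library of mouse 70. The log2 fold change was 0.57 (standard error 0.26, adjusted p = 0.363, edgeR), and 0.19 without mouse 57.

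S100a11, a partner of annexin A1 known from membrane repair, did not follow the other metastasis-linked members. It had 85.6, 67.4, 84.1 and 66.3 CPM in E-cadHI and 93.8, 98.9, 46.0 and 49.9 CPM in E-cadLO libraries of mice 57, 58, 67 and 70. The ratio was above 0 in mice 57 and 58 (0.13 and 0.55) and below 0 in mice 67 and 70 (-0.86 and -0.41), and the log2 fold change was -0.07 (standard error 0.27, adjusted p = 0.908, edgeR). Its direction turned without mouse 67 (0.17) and without mouse 70 (0.022).

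**Figure D2:**
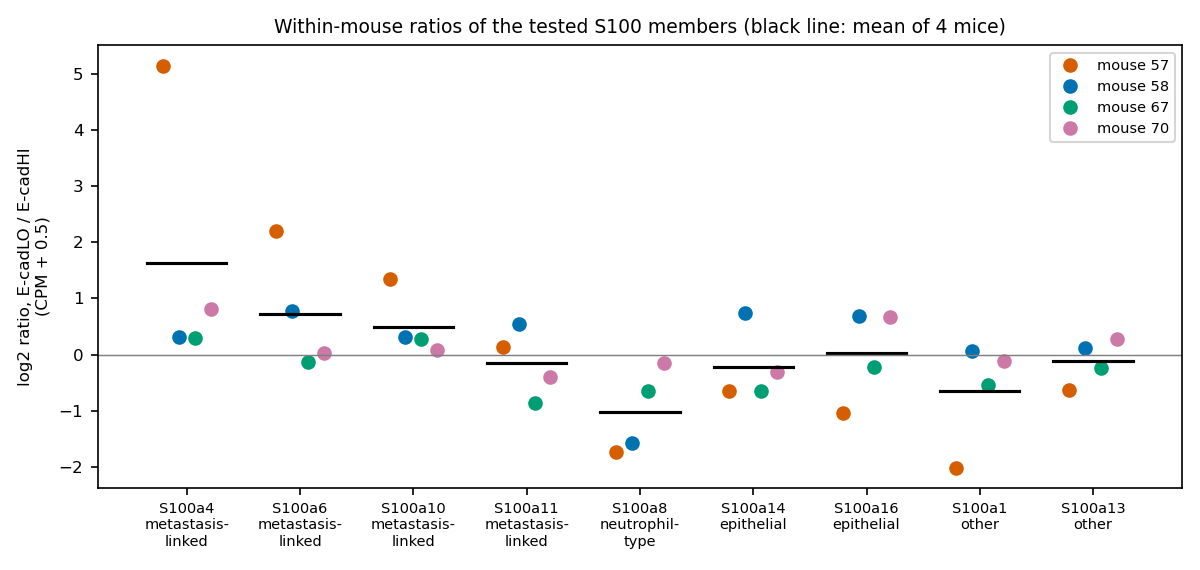
Log2 ratio of E-cadLO to E-cadHI (CPM + 0.5) within each of the 4 mice for the 9 tested members, grouped by role, with a black line at the mean of the mice. Mouse 57 gives the largest ratio in size for S100a4 (5.14), S100a6 (2.19), S100a10 (1.34), S100a8 (-1.73), S100a16 (-1.04), S100a1 (-2.01) and S100a13 (-0.63). S100a4, S100a10 and S100a8 have all 4 mice on the same side of 0.

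The E-cadLO library of mouse 57 also stood apart in a list of fibroblast markers. These genes, which include collagens, are also known from mesenchymal tumor cells. The sort was gated on tumor cells per the study's methods, although markers of other cells were present in the libraries. Of the 10 markers 8 were tested, and all 8 had a log2 fold change above 0 (median 5.62, and 2.75 with the replicate block). Of all genes tested, 55.1% were above 0 without the block. None was called by edgeR, and 2 were called higher by DESeq2 with the block (Dcn and Pdgfra). The 10 markers summed to 1658 CPM in the E-cadLO library of mouse 57. They summed to 26.3, 37.6 and 53.1 CPM in the E-cadLO libraries of mice 58, 67 and 70 and to 7.80 to 25.3 CPM in E-cadHI libraries. The collagen gene Col1a1 had 497.1 CPM in that library against at most 8.53 CPM in any other. S100a4, S100a6 and S100a10 were highest in the library where these markers were highest. RNA of fibroblasts, of mesenchymal tumor cells and of other cells with these genes cannot be told apart here. The part of any of them in the S100 values was not tested. In mice 58, 67 and 70, where the markers summed to at most 53.1 CPM, the log2 ratios were 0.29 to 0.81 for S100a4, -0.13 to 0.78 for S100a6 and 0.08 to 0.30 for S100a10.

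Of the neutrophil-type members, S100a8 was lower in E-cadLO cells. It had 22.9, 23.7, 15.2 and 15.7 CPM in the E-cadHI libraries of mice 57, 58, 67 and 70 and 6.54, 7.68, 9.56 and 14.1 CPM in their E-cadLO libraries, from 66 to 328 counts. All 4 E-cadHI values lay above all 4 E-cadLO values, by a wide margin in mice 57 and 58 (log2 ratios -1.73 and -1.57) and a narrow one in mouse 70 (-0.16), with mouse 67 between them (-0.65). The log2 fold change was -1.03 (standard error 0.31, adjusted p = 0.282, edgeR; unadjusted p = 0.00889), which corresponds to 0.488 of the E-cadHI level. With the replicate block it was -1.06 (adjusted p = 0.184, edgeR), and with DESeq2 and the block -1.04 (adjusted p = 0.0506), the closest that any member came to the threshold. Over all alternatives, the adjusted p of S100a8 lay between 0.0506 and 0.680. With each mouse left out in turn, the log2 fold change stayed between -1.37 and -0.83, so that this difference did not rest on mouse 57.

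S100a9, whose product needs S100A8 as its partner in calprotectin, was at 0 counts in 6 of 8 libraries, including all libraries of mice 57, 58 and 67. It had 9 counts (0.790 CPM) in E-cadHI and 25 counts (1.75 CPM) in E-cadLO cells of mouse 70. In the 6 libraries at 0, S100a8 was at least 22 to at least 109 times the S100a9 floor of 3 counts per library. In mouse 70, S100a8 counts were 19.9 times those of S100a9 in E-cadHI and 8.04 times in E-cadLO cells. Without a filter on low counts, the log2 fold change of S100a9 was 1.10 (standard error 1.73, adjusted p = 0.786, edgeR).

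The neutrophil label was checked against 12 neutrophil markers, of which 3 were tested. None was called by edgeR, and Ltf was called lower by DESeq2 with the block. The granule and surface genes Ly6g, Ngp, Camp, Retnlg, Elane and Mpo reached at most 2.23 CPM (30 counts) in any library. Leaving out Ltf and Cd177, the other 10 markers summed to 1.11 to 4.21 CPM in E-cadHI and 5.23 to 22.3 CPM in E-cadLO libraries. Single genes made up much of these sums, with 19.8 CPM of Mmp9 in the E-cadLO library of mouse 57 and 7.40 and 7.41 CPM of Csf3r, a receptor of the granulocyte lineage, in those of mice 67 and 70. Ltf (lactoferrin, also a milk protein made by mammary epithelium) had 12830 to 19340 CPM in E-cadHI and 2625 to 12590 CPM in E-cadLO libraries and was lower in E-cadLO cells in 4 of 4 mice (log2 fold change -1.13, adjusted p = 0.311, edgeR). DESeq2 with the block gave -1.28 for Ltf (adjusted p = 0.0104, in 0.0104 to 0.680 over the alternatives), and without mouse 57 edgeR gave -0.77. Cd177 had 29.7 to 49.3 and 9.29 to 29.1 CPM and was lower in 4 of 4 mice too (-0.93, adjusted p = 0.320, and -0.57 without mouse 57). The markers thus did not share 1 direction, and the role name is kept here as a name only. The part of neutrophils in the S100a8 values was not tested.

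**Figure D3:**
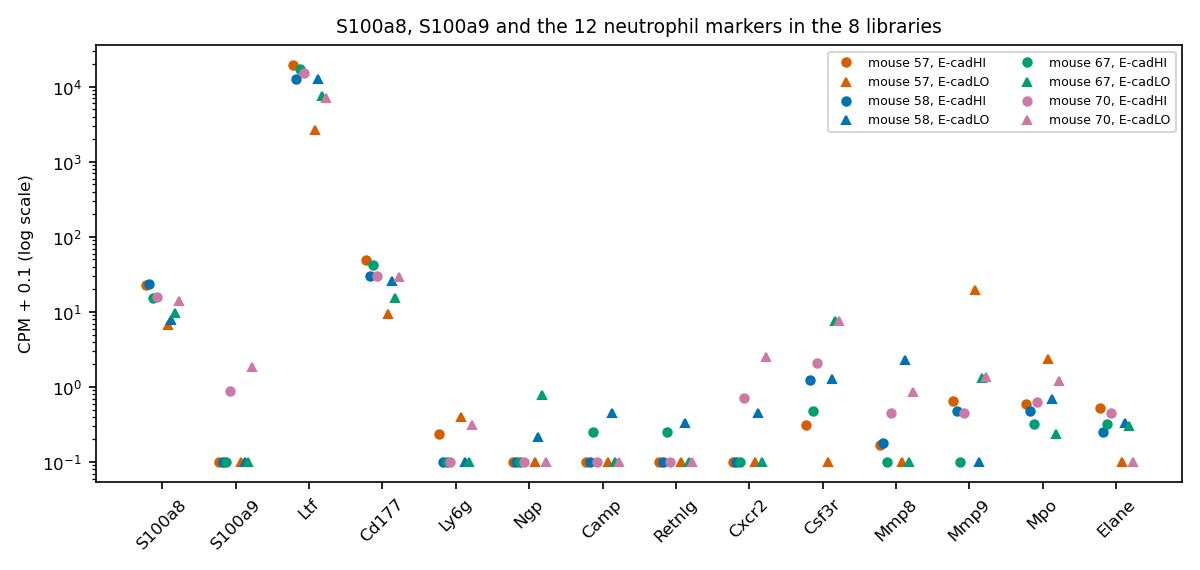
CPM + 0.1 (log scale) of S100a8, S100a9 and the 12 neutrophil markers in the 8 libraries, with circles for E-cadHI and triangles for E-cadLO and points at the bottom edge (0.1) for 0 counts. S100a8, Ltf and Cd177 are present in all libraries with the triangle of each mouse below its circle, while S100a9, Ly6g, Ngp, Camp, Retnlg, Elane and Mpo are below 3 CPM.

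The epithelial members differed in level and neither was lower in E-cadLO cells in all mice. S100a14, a gene of stratified and glandular epithelia, had 0.976, 0.922, 1.34 and 1.84 CPM in E-cadHI and 0.446, 1.86, 0.673 and 1.40 CPM in E-cadLO libraries of mice 57, 58, 67 and 70. These came from 6 to 21 counts, the ratio was above 0 in mouse 58 and below 0 in the other mice, and the log2 fold change was -0.22 (standard error 0.59, adjusted p = 0.868, edgeR). S100a16, which is expressed in many epithelia and also in astrocytes, had 47.9, 34.96, 63.8 and 149.3 CPM in E-cadHI and 23.0, 56.9, 54.3 and 237.5 CPM in E-cadLO libraries. Both libraries of mouse 70 lay above the other 6, and the ratio was above 0 in mice 58 and 70 (0.69 and 0.67) and below 0 in mice 57 and 67 (-1.04 and -0.23). Its log2 fold change was 0.33 (standard error 0.69, adjusted p = 0.828, edgeR). Blocking by mouse gave 0.032, and leaving out mouse 70 gave -0.12. The 6 astrocyte markers summed to 1143, 1133, 1302 and 3383 CPM in E-cadHI and 716.8, 1403, 1934 and 9380 CPM in E-cadLO libraries of the same mice, and both libraries of mouse 70 were the highest of their group for these markers as for S100a16. In mouse 57 the markers did not go together, since Aldoc had 1005 CPM in E-cadHI and 123.7 CPM in E-cadLO cells, while Gja1 had 126.7 and 535.9 CPM. In E-cadHI libraries, Aldoc made up most of the sum of these markers. Mouse 70 was also the highest of both groups for oligodendrocyte markers (8566 CPM in E-cadHI and 34320 CPM in E-cadLO cells). The same held for microglia and macrophage markers (147.2 and 521.2 CPM). The match with S100a16 was thus not particular to astrocyte markers. The part of RNA of astrocytes or of these other cells in S100a16 was not tested.

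**Figure D4:**
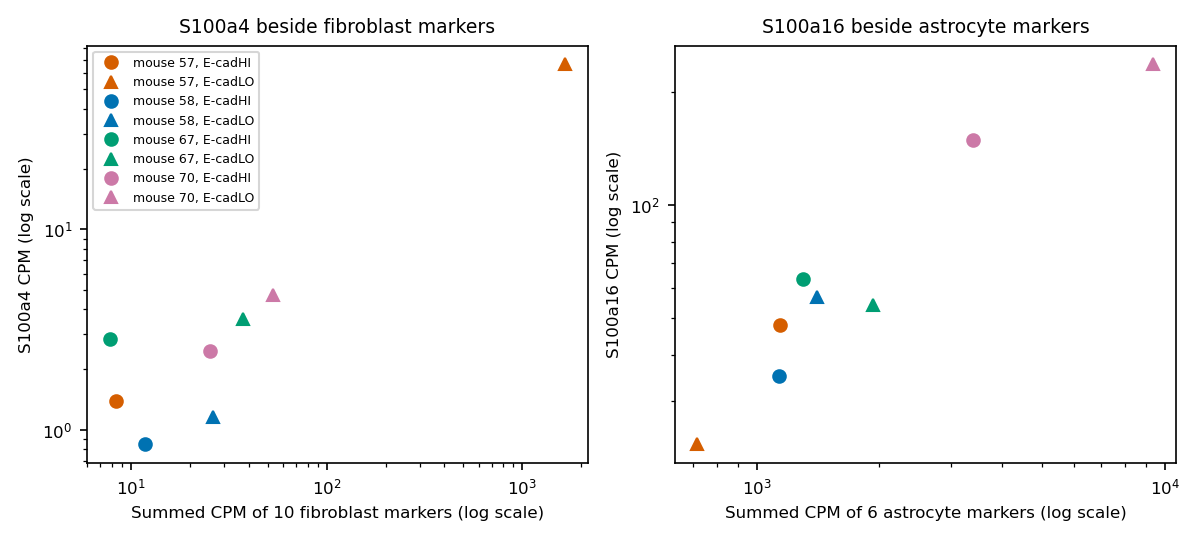
Left, S100a4 against the summed CPM of 10 fibroblast markers; right, S100a16 against the summed CPM of 6 astrocyte markers, with log scales on all axes, 1 point per library, circles for E-cadHI and triangles for E-cadLO. The E-cadLO library of mouse 57 stands apart on the left (1658 CPM of fibroblast markers, 66.5 CPM of S100a4), and both libraries of mouse 70 stand at the upper right of the right panel. Aldoc makes up most of the astrocyte sum in E-cadHI libraries.

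S100a1 and S100a13, whose starts are 42 bases apart, were both present in every library. S100a1 had 267.1, 165.6, 273.3 and 359.0 CPM in E-cadHI and 65.8, 173.0, 187.5 and 331.0 CPM in E-cadLO libraries of mice 57, 58, 67 and 70. It was lower in E-cadLO cells of mice 57, 67 and 70 (log2 ratios -2.01, -0.54 and -0.12) and about level in mouse 58 (0.06), and the log2 fold change was -0.49 (standard error 0.42, adjusted p = 0.575, edgeR). Without mouse 57 it was -0.24. S100a13 had 35.8, 21.8, 41.2 and 45.8 CPM in E-cadHI and 23.0, 23.6, 34.9 and 55.7 CPM in E-cadLO libraries, with ratios of -0.63, 0.11, -0.24 and 0.28. Its log2 fold change was -0.08 (standard error 0.34, adjusted p = 0.925, edgeR), and 0.040 without mouse 57. The neighbors therefore shared the direction of their ratio in mice 57, 58 and 67 and not in mouse 70.

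To compare levels between the genes, CPM were divided by the length of the annotated exons in kilobases. In E-cadHI cells S100a1 was the most abundant, with 384 ± 114 CPM per kb (SD, n = 4), and its lowest library lay above the highest of the next gene. S100a11 (148 ± 20.4) and S100a10 (113 ± 14.4) followed with overlapping ranges, and then, below them without overlap, S100a6 (58.7 ± 13), S100a13 (50.6 ± 14.6), S100a16 (45.7 ± 31.9) and S100a8 (27.9 ± 6.53), each of which overlapped the next. S100a4 (3.22 ± 1.57) was separated from S100a8 above and from S100a14 (0.735 ± 0.246) below. In E-cadLO cells the order began with S100a1 (273 ± 157), S100a10 (167 ± 68.3) and S100a11 (141 ± 54.9). There, only S100a8 (13.6 ± 4.76) and S100a9 (0.837 ± 1.67) were neighbors without overlap. Over all 8 libraries, S100a4 varied most (SD 1.78 of log2 CPM + 0.5), followed by S100a16 (1.08), and S100a11 varied least (0.41).

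Likeness between genes was measured as the root mean square (RMS) difference of their centred log2 CPM + 0.5 over the 8 libraries. Among members, S100a6 and S100a10 were the most alike (RMS 0.29), followed by S100a1 and S100a13 (0.45). Over all genes tested, those closest to S100a10 were Gnptg (0.12) and the tetraspanin gene Cd63 (0.15) with its pseudogene Cd63-ps (0.15), where the median gene was at 0.61. Cd63 and Cd63-ps may share reads. The genes closest to S100a8 were Arhgef37 (0.23), Gbp7 (0.26) and Cenpm (0.26), against a median of 0.74. Closest to S100a16 were Gstm5 (0.20), Gm5514 (0.24) and the ferritin heavy chain gene Fth1 (0.26, median 1.08), and closest to S100a1 were Uqcr11 (0.17), the tetraspanin gene Cd81 (0.18) and Hint2 (0.20, median 0.84).

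The proteins that S100 members bind were compared in the same fit, from hand-written lists. None of the 6 annexin-type partners was called by edgeR or DESeq2, and their median log2 fold change was 0.34, with 4 above 0. Anxa2, the partner of S100a10, had 1632, 1059, 1653 and 1578 CPM in E-cadHI and 2423, 1394, 1977 and 1435 CPM in E-cadLO libraries of mice 57, 58, 67 and 70, higher in 3 of 4 mice (log2 fold change 0.29, adjusted p = 0.571, edgeR; 0.14 without mouse 57). Like S100a10, it was highest in the E-cadLO library of mouse 57. Anxa1, the partner of S100a11, had a log2 fold change of -0.15 (adjusted p = 0.732), and Anxa6 of -0.26 (adjusted p = 0.496), with lower levels in E-cadLO cells of 4 of 4 mice (edgeR).

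None of the 7 intracellular targets was called by either tool, with a median log2 fold change of -0.00086 (3 above and 4 below 0). Cacybp, which S100A6 binds, was lower in E-cadLO cells in 4 of 4 mice, with 230.5, 252.9, 242.4 and 327.5 CPM in E-cadHI and 186.4, 214.5, 197.2 and 282.4 CPM in E-cadLO libraries (log2 fold change -0.26, adjusted p = 0.516, edgeR). None of the 4 receptors was called by edgeR (median -0.12). Cd36, a scavenger receptor that binds S100A8 and S100A9, was called higher by DESeq2 with the block (log2 fold change 4.01, adjusted p = 0.0383, in 0.0383 to 0.719 over the alternatives), at 0 to 1.14 CPM in E-cadHI and 0.223 to 2.56 CPM in E-cadLO libraries. Basigin (Bsg), a receptor for S100A8 and S100A9, had 1808, 1135, 2051 and 1829 CPM in E-cadHI and 478.5, 1159, 1543 and 1532 CPM in E-cadLO libraries (log2 fold change -0.53, adjusted p = 0.490, edgeR), and -0.27 without mouse 57. Tlr4 had 33.6 to 40.1 and 21.9 to 44.4 CPM (log2 fold change -0.23, adjusted p = 0.641, edgeR).

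Of 8 other S100 family genes listed, 7 were in the table and 2 were tested. S100b, known as a gene of astrocytes and of the oligodendrocyte lineage, had 1.46, 12.8, 5.203 and 153.4 CPM in E-cadHI and 4.38, 31.9, 42.1 and 428.8 CPM in E-cadLO libraries of mice 57, 58, 67 and 70. It was higher in E-cadLO cells in 4 of 4 mice while its level differed between mice by much more than between populations. The log2 fold change was 1.56 (adjusted p = 0.618, edgeR). Blocking by mouse gave 1.84 (standard error 0.30, adjusted p = 0.0479), and the adjusted p lay between 3.991e-07 and 0.794 over all alternatives and passed only with the block. With edgeR and the block, S100b did not pass without mouse 58 (adjusted p = 0.0767), 67 (0.247) or 70 (0.230). In edgeR, 6 of 6 astrocyte and 5 of 6 oligodendrocyte markers had a log2 fold change above 0, beside 55.1% of all genes. With the block, 2 of 6 astrocyte markers (Gfap, Slc1a3) and 2 of 6 oligodendrocyte markers (Mbp, Mobp) were called higher, beside 0.728% of all genes. Aldoc and Cnp were below 0 with the block (-0.31 and -0.47), and Cnp was lower in E-cadLO cells in 3 of 4 mice. The oligodendrocyte markers summed to 553.5 to 8566 CPM in E-cadHI and 1312 to 34320 CPM in E-cadLO libraries. The part of these cells in S100b was not tested. S100a3 had a log2 fold change of 2.18 (adjusted p = 0.308, edgeR), with means of 0.465 ± 0.362 CPM in E-cadHI and 2.13 ± 1.66 CPM in E-cadLO cells (SD, n = 4).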

How the data were processed

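E-cadHI and E-cadLO cells of 4 mice were sequenced as 8 mRNA libraries with single reads. The authors mapped reads with Hisat (HISAT2 2.1.0 in the submitters' processing notes) to GRCm38 and deposited raw counts per gene. The paper names Icount and the processing notes HTSeq as the counter, and the settings for strand and for reads matching several genes are not given in the sources used here. From these counts, 365 of 32259 rows without an identifier (0.0636% to 0.0954% of counts) were left out. Counts were fitted in R 4.3.3 by edgeR 4.0.16, with TMM scaling, filterByExpr (minimum count 10) and its quasi-likelihood test without a block, with Benjamini-Hochberg adjustment over 13598 genes and a threshold of 0.05. CPM are TMM-normalized, and ratios within a mouse used a pseudocount of 0.5. Total counts of 9102781 to 15769200 set the counting error, to which the spread between mice is added. Without the block, p-values measure the spread between libraries of the same population, from mice that carried the same organoid line. They do not use the pairing by mouse, which the fit with the block does.

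The mouse number in the labels pairs the libraries, since both populations came from the same animal. Deviations from group means correlated at 0.275 to 0.698 within the 4 mice and at most 0.153 in the 12 pairs of different mice. The deviations of a gene sum to 0 over the 4 mice, so that positive correlations within mice lower those between mice. Part of this contrast is therefore fixed by the centring. Alternatives were the replicate block, DESeq2 1.42.0 with and without it, DESeq2's size factors, no filter on low counts, Gm42418 left out, and each mouse left out. Besides the members, the genes named are at most the 3 most abundant tested genes of each list, any called list gene, and the 3 genes most like the most abundant member of each role. Genes outside this rule (Ly6g, Ngp, Camp, Retnlg, Elane, Mpo, Mmp9, Slc1a3, Dcn, Pdgfra, Thy1, Fbln1 and Cdh1) were named after their values were seen. The members and lists were chosen with earlier results of these data known. Exon lengths and overlaps are from GENCODE M21.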

Additional observations from a re-analysis of the deposited data

Results flagged for a closer look

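Of 30 groups of 4 values (CPM of each member in each population, and the ratios within mice), 9 held 1 sample far from the other 3 by Dixon's criterion. The 3 groups of S100a9 hold 3 values of 0, so that any remaining value above 0 meets the criterion. Without them 6 of 27 groups remain, where 1.35 would be flagged by chance, about 1 in 20. The rate of 1 in 20 assumes normally distributed values, which was not checked here, and most groups are CPM on a linear scale. The values also share mice and genes, so they are not independent.

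Of these, 4 came from mouse 57. In its E-cadLO library, S100a4 had 66.5 CPM where the other mice had 1.16 to 4.68 CPM. The log2 ratio of S100a4 in this mouse was 5.14, where the others lay between 0.29 and 0.81. S100a6 had 290.7 CPM in the same library, against 90.9 to 116.3 CPM, and S100a10 had 325.8 CPM, against 153.3 to 172.3 CPM.

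The other 5 came from mouse 70. S100a10 had 162.8 CPM in its E-cadHI library, where the other mice were within 127.2 to 128.5 CPM. S100a16 had 237.5 CPM in its E-cadLO library, against 23.0 to 56.9 CPM. S100a9 had 0.790 CPM in E-cadHI and 1.75 CPM in E-cadLO cells of this mouse and 0 in the other mice, which gave a log2 ratio of 0.80 where the others were 0. These S100a9 values rest on 9 and 25 counts.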

How the results depend on the processing

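No member was called in any of the 15 settings. Of 126 log2 fold changes of members under alternatives, 118 kept their direction and 8 turned, all with a mouse left out. S100a11 ranged from -0.29 to 0.17 (0.17 without mouse 67, 0.022 without 70), and with the block from -0.37 to 0.11 (0.11 without 67). S100a13 ranged from -0.27 to 0.040 (without mouse 57), and with the block from -0.25 to 0.027 (without 57). S100a16 ranged from -0.12 (without mouse 70) to 0.46, and with the block from -0.18 (without 58 or 70) to 0.36. The replicate block, which the pairing by mouse calls for, raised the genes called higher from 0 to 99, with 0 to 425 over the mice left out (425 without mouse 57, 63 without 58, 2 without 70) and 0 to 24 called lower (24 without mouse 57, 3 without 58), and changed the call of no member. Called higher and lower were 298 and 61 genes with DESeq2, 1030 and 225 with DESeq2 and the block, and 23 and 0 without a filter on low counts. Of the partner and marker genes, 0 were called at first, 9 with the block (0 to 19 over the mice left out, 19 without mouse 57 and 8 without 58), 6 with DESeq2 and 25 with DESeq2 and the block. The cause of these differences between settings was not tested. DESeq2 without the block gave no adjusted p for S100a4. Counts of 0 to 25 for S100a9 and 6 to 21 for S100a14 limit what could be seen of them.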

Other observations

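Marker lists of cells other than tumor cells were compared in the same fit. All 10 microglia and macrophage markers had a log2 fold change above 0 in E-cadLO cells, with a median of 1.84. Of all genes tested, 55.1% were above 0. Of the 10 markers, 9 were higher in 4 of 4 mice, as were 16.8% of all genes. With the replicate block, edgeR called 4 of the 10 higher, beside 0.728% of all genes, and none without it. DESeq2 called 9 higher with the block and 5 without it, beside 7.72% and 2.31% of all genes. Of the 6 endothelial markers, 5 were tested and all 5 were above 0 (median 1.35). None was called by edgeR, and Tek was called higher by DESeq2 with the block (log2 fold change 3.35, adjusted p = 0.00219). Of the 6 T cell markers, 1 was tested, Lck, with a log2 fold change of 0.18. The 11 epithelial markers had a median of -0.17 with 4 above and 7 below 0, and Epcam, an epithelial adhesion gene, was lower in E-cadLO cells in 4 of 4 mice (log2 fold change -0.75, adjusted p = 0.363, edgeR).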
